A study of Homo sapiens with 6 samples.

Results

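Chromosome 18 carried 1526 of the 65225 distinct peaks in the 4 peak lists of the study, and these peaks are described here with the genes, widths and positions that go with them. The peaks were taken by position: every distinct interval on chromosome 18 counted once per list. The lists hold no peak centred more than 19999 bp from a listed start site, so any farther out are not counted. The chromosome itself was chosen by peak numbers of both marks, for its many kept H3K4me3 peaks in the knockout and for its many H3K27me3 peaks. The peak numbers, ratios and densities of both marks below are therefore descriptions, without a test, and support nothing further. The H3K4me3 lists held 486 peaks on chromosome 18 in JMJD3 KO cells and 510 in parental cells. The H3K27me3 lists held 231 in JMJD3 KO cells and 299 in parental cells.

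The cells are HL-60, an established human promyelocytic leukaemia line that the labels describe as myeloblast, grown in DMEM with fetal bovine serum. JMJD3 KO cells are labelled as a JMJD3 knockout and the others as the parental line, and loss of JMJD3 was not checked here. The labels say neither how the knockout was made nor whether it is 1 clone. Chromatin immunoprecipitation and sequencing (ChIP-seq) of each genotype gave 1 H3K4me3 and 1 H3K27me3 library, and 2 input libraries were not analysed here. With 1 library for each genotype and mark no difference has a replicate check, no p-value can be given, and differences between genotypes cannot be told apart from differences between libraries. The antibody label of the H3K27me3 libraries names H3K4me3, with another catalogue number than the H3K4me3 libraries have, so the mark was read from the titles.

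H3K4me3 is a methyl mark that sits around the start sites of active and poised genes, above all at promoters rich in CpG dinucleotides. H3K27me3 is laid down by Polycomb complexes over silent developmental and lineage genes, often in broad blocks, and JMJD3, the product of KDM6B, is an enzyme that takes it off. Human chromosome 18 is poor in genes, with long gene deserts on its long arm. It carries the apoptosis inhibitor BCL2, the SMAD genes of transforming growth factor beta (TGF-beta) signalling, and clusters of desmosomal cadherins and of serpins. An extra copy of chromosome 18 has been described in HL-60; copy number was not measured here.

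The promoters below are shown because their genes stand for the main states of the chromosome. Each runs from 250 bases before to 50 bases after a start site, 5′ to 3′ on the gene's strand, from RefSeq on GRCh38.p14, with CpG dinucleotides in capitals. The peaks are on hg19, and these GRCh38.p14 positions were not mapped onto them. BCL2 (chr18:63319720-63320019, minus strand) carried H3K4me3 in both genotypes. PARD6G, a cell polarity gene (chr18:80247465-80247764, minus strand), carried H3K4me3 in parental cells only. SERPINB2, a protease inhibitor made by stimulated macrophages (chr18:63887455-63887754, plus strand), carried H3K4me3 in JMJD3 KO cells only. KCTD1, a repressor of transcription (chr18:26657424-26657723, minus strand), lay in the widest H3K27me3 peaks of the chromosome.
BCL2: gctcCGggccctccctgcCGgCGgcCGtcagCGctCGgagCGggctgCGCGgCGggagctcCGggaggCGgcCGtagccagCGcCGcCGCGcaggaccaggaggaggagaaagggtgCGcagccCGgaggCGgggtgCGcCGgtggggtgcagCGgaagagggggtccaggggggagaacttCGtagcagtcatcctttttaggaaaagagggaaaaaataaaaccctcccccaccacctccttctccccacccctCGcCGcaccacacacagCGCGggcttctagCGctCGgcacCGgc
PARD6G: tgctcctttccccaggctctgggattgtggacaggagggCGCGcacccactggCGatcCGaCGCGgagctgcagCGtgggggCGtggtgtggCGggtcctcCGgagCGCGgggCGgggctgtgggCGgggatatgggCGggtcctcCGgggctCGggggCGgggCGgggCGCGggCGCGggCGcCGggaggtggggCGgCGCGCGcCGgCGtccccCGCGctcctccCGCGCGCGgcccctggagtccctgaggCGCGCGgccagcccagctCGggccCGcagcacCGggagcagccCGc
SERPINB2: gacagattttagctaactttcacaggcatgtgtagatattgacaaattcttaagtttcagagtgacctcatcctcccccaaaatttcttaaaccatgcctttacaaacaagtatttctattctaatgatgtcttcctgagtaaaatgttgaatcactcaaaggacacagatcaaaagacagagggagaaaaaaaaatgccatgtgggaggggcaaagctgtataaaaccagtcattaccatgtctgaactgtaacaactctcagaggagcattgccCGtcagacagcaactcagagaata
KCTD1: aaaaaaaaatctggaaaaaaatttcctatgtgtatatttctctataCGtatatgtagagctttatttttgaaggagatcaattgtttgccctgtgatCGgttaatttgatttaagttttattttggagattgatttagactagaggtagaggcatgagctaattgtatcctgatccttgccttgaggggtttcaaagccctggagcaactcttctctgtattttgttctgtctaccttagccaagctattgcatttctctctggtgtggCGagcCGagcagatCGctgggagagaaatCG

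BCL2 had 31 CpG dinucleotides in this window, PARD6G 44, SERPINB2 1 and KCTD1 6, against a median of 14 over all 35116 promoters of the table. The SERPINB2 window held TATAAA, searched on both strands like every motif here, and 11.5% of all promoters held it. The PARD6G window held GGGCGG, the core of a GC box, and 45.0% of all promoters held it. The BCL2 and KCTD1 windows held neither of these motifs, nor CCAAT, the box bound by NF-Y.

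H3K4me3 peaks on chromosome 18 were nearly as many in the knockout as in the parental line. The ratio of JMJD3 KO to parental peaks was 0.953 (95% interval 0.842 to 1.08), where all other chromosomes gave 24457 JMJD3 KO peaks and 32960 parental peaks, a ratio of 0.742 (0.730 to 0.754). The ratio was the first of 23 chromosomes, followed by chromosome 13 at 0.885 and chromosome 8 at 0.802, with the X chromosome last at 0.370. Chromosome 18 thus made up 1.95% of the JMJD3 KO list and 1.52% of the parental list. These intervals rest on peak numbers alone, cover counting error only, and treat neighbouring peaks as independent, which they are not.

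**Figure D1:**
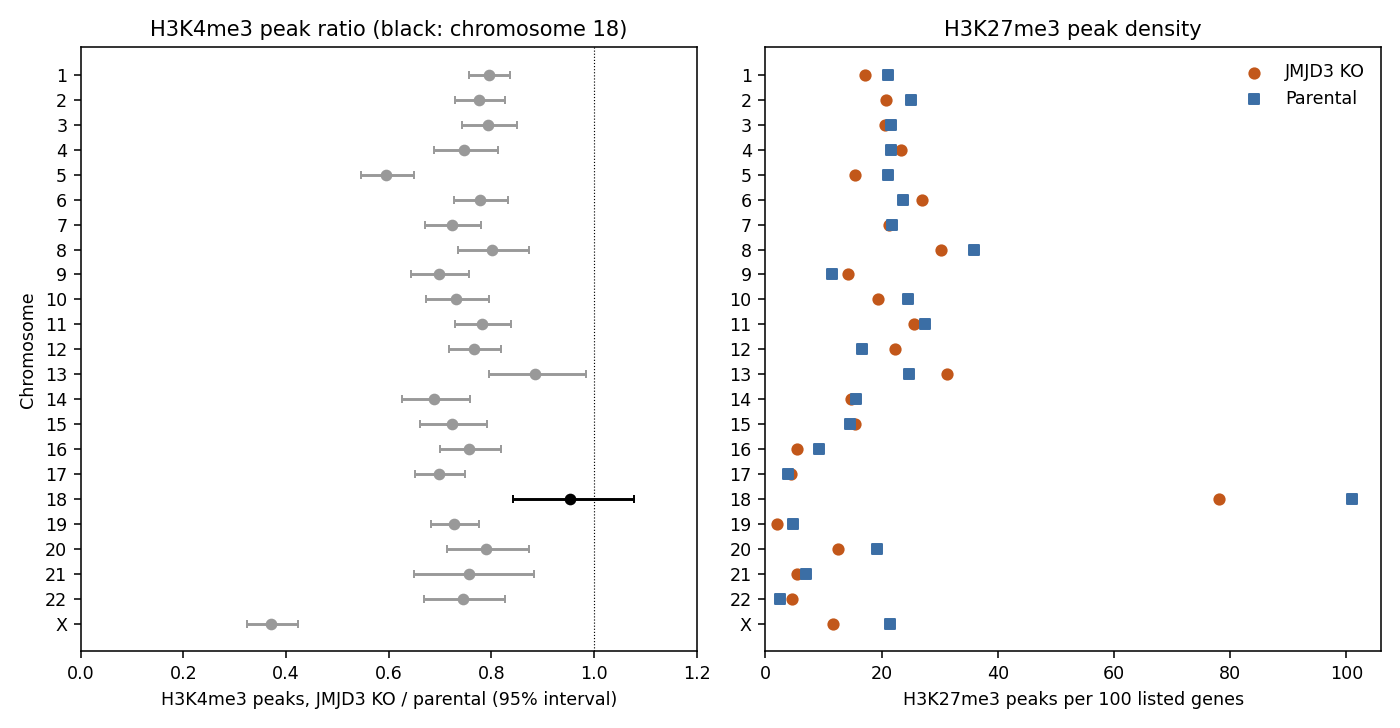
Left, JMJD3 KO to parental ratio of H3K4me3 peaks for each chromosome, with 95% intervals from peak numbers; chromosome 18 is black, at 0.953, and the dotted line marks equal numbers. Right, H3K27me3 peaks per 100 listed genes in JMJD3 KO (circles) and parental cells (squares), where chromosome 18 stands at 78.0 in JMJD3 KO and 101 in parental cells.

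The number of H3K4me3 peaks was close between genotypes, but their width was not. The median H3K4me3 peak on chromosome 18 was 292 bp wide in JMJD3 KO cells and 397.5 bp in parental cells. On all other chromosomes the medians were 259 bp in JMJD3 KO cells and 358 bp in parental cells. Peaks of at least 1 kb made up 29 of the 486 JMJD3 KO peaks (5.97%) and 101 of the 510 parental peaks (19.8%). Elsewhere such wide peaks were 1.70% of JMJD3 KO peaks and 12.7% of parental peaks. H3K4me3 peaks covered 198 kb of chromosome 18 in JMJD3 KO cells and 319 kb in parental cells, a ratio of 0.621, against 0.471 on all other chromosomes. Chromosome 18 again came first of the 23 chromosomes on this measure.

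Most JMJD3 KO peaks lay on a parental peak, and many wide parental peaks met several narrow JMJD3 KO peaks. Of JMJD3 KO H3K4me3 peaks on chromosome 18, 86.6% (83.3 to 89.4) overlapped a parental peak by at least 1 bp. In the other direction, 59.2% (54.9 to 63.4) of parental peaks overlapped a JMJD3 KO peak, and elsewhere the shares were 88.8% of JMJD3 KO peaks and 52.5% of parental peaks. The overlapped parental peaks had a median width of 724.5 bp, and those with no JMJD3 KO peak one of 230.5 bp. Of the parental peaks, 21.8% were overlapped by 2 or more JMJD3 KO peaks, against 14.7% elsewhere. Counting only peaks of at least 300 bp, the lists held 233 JMJD3 KO and 320 parental peaks, a ratio of 0.728 against 0.514 elsewhere. With peaks under 1 kb apart merged, 190 JMJD3 KO and 197 parental regions were left, a ratio of 0.964 against 0.868 elsewhere.

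Along the chromosome, H3K4me3 peak numbers were similar between genotypes in 6 of the 8 windows of 10 Mb, with ratios from 0.910 to 1.05. The window from 50 to 60 Mb, which holds TCF4, NEDD4L, MALT1 and PMAIP1, had 37 JMJD3 KO and 56 parental H3K4me3 peaks, a ratio of 0.661 (0.437 to 0.998). Promoters there also had the strongest median narrowing of the 8 windows, at −0.94 on the log2 scale of summed width. The window from 60 to 70 Mb, with BCL2 and the serpin cluster, had 49 JMJD3 KO and 39 parental H3K4me3 peaks, a ratio of 1.26 (0.828 to 1.91). Only 69.4% of its JMJD3 KO peaks overlapped a parental peak, while the share was 85.7% to 97.3% in the other windows. The covered length was nonetheless smaller in JMJD3 KO cells in all 8 windows, at 0.477 to 0.682 of the parental length.

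**Figure D2:**
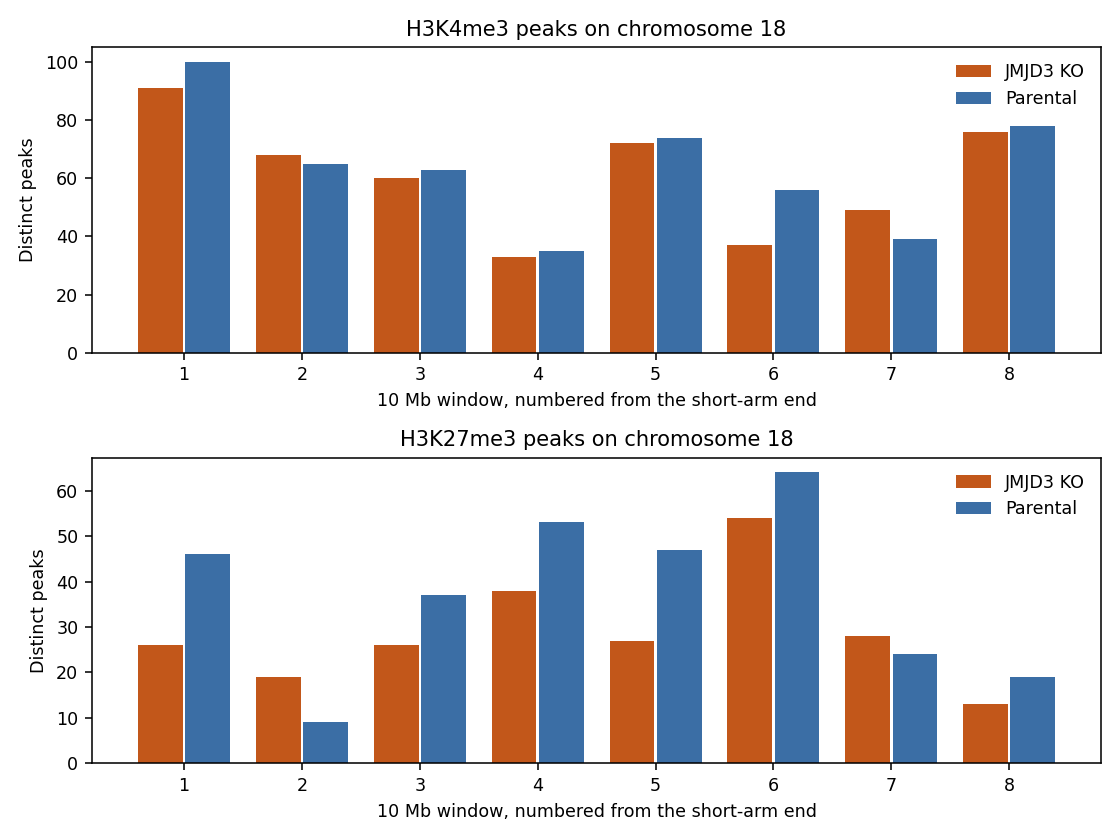
Distinct peaks on chromosome 18 in 8 windows of 10 Mb, numbered from the end of the short arm, for H3K4me3 (top) and H3K27me3 (bottom), with JMJD3 KO in orange and parental in blue. In window 6 there were 37 JMJD3 KO and 56 parental H3K4me3 peaks, in window 7 there were 49 JMJD3 KO and 39 parental ones, and in window 2 there were 19 JMJD3 KO and 9 parental H3K27me3 peaks.

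At the level of genes, almost every promoter that carried H3K4me3 in one genotype carried it in both. A promoter counted as marked when the centre of a peak was at most 5 kb from any start site of the gene, or when a peak spanned one. Of 296 listed genes on chromosome 18, 167 were marked in both genotypes, 3 in JMJD3 KO cells only and 11 in parental cells only. Over all genes marked in either list, 1.36% were marked in JMJD3 KO cells only and 13.1% in parental cells only. The 11 genes were 6.18% of the genes marked in parental cells on chromosome 18, against 13.3% elsewhere. Among the 167 genes, the summed width of promoter peaks had a median log2 ratio of JMJD3 KO to parental of −0.69 (quartiles −0.98 and −0.35), against −1.02 elsewhere. Promoters at least 2-fold narrower in JMJD3 KO cells numbered 41 (24.6%), against a background of 50.6% over all genes marked in both lists. No promoter was at least 2-fold wider, against a background of 0.384%, and 10 (5.99%) were wider by any amount, against 4.05%. All of these values come from the contrast that picked the chromosome, and nothing is read from them.

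Of the 167 promoters, 62 (37.1%) had more peaks in JMJD3 KO cells than in parental cells, 44 had equal numbers and 61 had fewer. Over all genes marked in both lists, 24.6% had more peaks in JMJD3 KO cells. The summed width was smaller in JMJD3 KO cells at 58 of the 62 promoters with more peaks (93.5%), at all 61 with fewer peaks, and at 157 of the 167 in all (94.0%). ROCK1, a kinase of the actin skeleton, had 7 H3K4me3 peaks in JMJD3 KO cells and 2 in parental cells, with summed widths of 2984 bp in JMJD3 KO cells and 4401 bp in parental cells. Its parental signal was mostly 1 peak of 3306 bp at chr18:18688279-18691584, the second widest parental H3K4me3 peak on the chromosome.

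BCL2, which blocks mitochondrial apoptosis, carried the widest parental H3K4me3 peak of chromosome 18, 3896 bp at chr18:60983336-60987231 and across its start site at 60986613. Its promoter peaks summed to 3180 bp in JMJD3 KO cells, in 4 peaks, and to 4378 bp in parental cells, in 2 peaks (log2 ratio −0.46). PMAIP1, which encodes the pro-apoptotic protein NOXA, had 1559 bp in JMJD3 KO cells and 3453 bp in parental cells (−1.15). Of 16 genes of apoptosis and immune signalling, 12 carried H3K4me3 in both genotypes, with a median log2 ratio of −0.64, and the other 4 were not listed with any peak. The counts of narrowed list members here and below stand against 41 of the 167 genes on chromosome 18 (24.6%) and 50.6% of all genes. The counts of list members marked in both genotypes stand against 167 of the 296 listed genes on chromosome 18 and 11023 of 17790 elsewhere. Of the 12 genes of apoptosis and immune signalling, 3 were at least 2-fold narrower. They were PMAIP1, the phosphatase gene PHLPP1 with 1420 bp in JMJD3 KO cells and 3395 bp in parental cells (−1.26), and NFATC1. NFATC1, a calcium-regulated transcription factor of lymphocytes and osteoclasts, had 1762 bp in JMJD3 KO cells and 4206 bp in parental cells (−1.26). MIB1, a ubiquitin ligase that activates Notch ligands, was the member wider in JMJD3 KO cells, with 1879 bp there and 1500 bp in parental cells (0.33); with a 1 kb window the difference, JMJD3 KO minus parental, was −25 bp. MALT1, a protease of NF-kappaB signalling, had 1207 bp in JMJD3 KO cells and 1455 bp in parental cells (−0.27). Its peaks are shared with LOC101927322. PTPN2, a phosphatase that restrains JAK and STAT signalling, had 1339 bp in JMJD3 KO cells and 2317 bp in parental cells (−0.79).

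Most TGF-beta genes of the chromosome, from signal transducer to inhibitor, carried H3K4me3 in both genotypes. Of 8 genes on this list, 7 carried H3K4me3 in both genotypes, with a median log2 ratio of −0.86. Of these 7, 3 were at least 2-fold narrower, beside 24.6% on chromosome 18 and 50.6% of all genes. Among the transducers, SMAD2 had 1149 bp in 4 peaks in JMJD3 KO cells and 2079 bp in 1 peak in parental cells (−0.86), where a 1 kb window turned the difference to 836 bp more in JMJD3 KO cells. SMAD4, the partner of all receptor-activated SMADs, had 1450 bp in JMJD3 KO cells and 2345 bp in parental cells (−0.69). SMAD7, the inhibitory SMAD, was the least changed of the 7, with 3427 bp in JMJD3 KO cells and 3772 bp in parental cells (−0.14). It also held the widest JMJD3 KO H3K4me3 peak of the chromosome, 2201 bp at chr18:46475010-46477210. TGIF1, a corepressor of SMAD-driven transcription, had the widest promoter mark of the chromosome in parental cells, 6310 bp in 8 peaks, and 2974 bp in 10 peaks in JMJD3 KO cells (−1.09). LDLRAD4, a membrane protein that dampens TGF-beta signalling, had 157 bp in JMJD3 KO cells and 595 bp in parental cells (−1.92). The eighth gene, SKOR2, is a neuronal corepressor and had H3K27me3 instead, described below.

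Of 10 chromatin genes, 7 carried H3K4me3 in both genotypes, with a median log2 ratio of −1.03, beside −1.02 over all other chromosomes. Of these 7, 5 were at least 2-fold narrower, beside 24.6% on chromosome 18 and 50.6% of all genes. MBD2, a reader of methylated DNA, had 523 bp in JMJD3 KO cells and 1779 bp in parental cells (−1.77). Its peaks are shared with SNORA37. SMCHD1, which keeps the inactive X chromosome silent, had 2254 bp in JMJD3 KO cells and 4614 bp in parental cells (−1.03). Its peaks are shared with CBX3P2, and with nearest genes alone the SMCHD1 difference went from −2360 bp to −1489 bp. SS18, a subunit of BAF remodelling complexes, had 1045 bp in JMJD3 KO cells and 2779 bp in parental cells (−1.41). CXXC1, which binds unmethylated CpG and brings the SETD1 H3K4 methyltransferase complexes, had 831 bp in JMJD3 KO cells and 1720 bp in parental cells (−1.05). ZBTB14, a zinc finger repressor, was little changed, with 1396 bp in JMJD3 KO cells and 1534 bp in parental cells (−0.14).

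Genes of cell division and genome maintenance were marked in 12 of 14 cases in both genotypes, with a median of −0.74. TYMS, the thymidylate synthase targeted by fluorouracil, had 1558 bp in JMJD3 KO cells and 2551 bp in parental cells (−0.71). Its peaks are shared with TYMSOS. POLI, a translesion DNA polymerase, had 161 bp in JMJD3 KO cells and 1080 bp in parental cells (−2.75). SKA1, which couples kinetochores to microtubules, had 313 bp in JMJD3 KO cells and 998 bp in parental cells (−1.67). HAUS1, an augmin subunit of the spindle, was wider in JMJD3 KO cells, with 1063 bp there and 897 bp in parental cells (0.24); with a 10 kb window the difference was −958 bp. POLI and SKA1 were the 2 of these 12 at least 2-fold narrower, beside 24.6% on chromosome 18 and 50.6% of all genes.

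Genes of vesicle traffic and the lysosome had a median of −0.33 over the 12 of 16 marked in both genotypes, beside −0.69 over the 167 genes of the chromosome. Of the 12, 4 were wider in JMJD3 KO cells. NPC1, the lysosomal cholesterol exporter, had 1427 bp in JMJD3 KO cells and 1327 bp in parental cells (0.10). EPG5, a tether of autophagosomes, had 1216 bp in JMJD3 KO cells and 1123 bp in parental cells (0.11). With peaks of at least 300 bp both were narrower in JMJD3 KO cells, with a difference of −146 bp at NPC1 and −322 bp at EPG5. VPS4B, which disassembles ESCRT-III, had 1228 bp in JMJD3 KO cells and 1181 bp in parental cells (0.06). PIK3C3, the lipid kinase VPS34, went the other way, with 486 bp in JMJD3 KO cells and 1626 bp in parental cells (−1.74). MYO5B, a motor of recycling endosomes, was marked in JMJD3 KO cells only, by 1 peak of 197 bp at chr18:47721292-47721488 across its start site.

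Genes of metabolism, mitochondria, RNA and protein synthesis were the largest marked group, with 20 of 22 marked in both genotypes and a median of −0.61. RPL17, a ribosomal protein gene, had 2718 bp in JMJD3 KO cells and 3553 bp in parental cells (−0.39); it shares its region with C18orf32 and small nucleolar RNAs, so the peaks cannot be given to 1 of them. FECH, the last enzyme of haem synthesis, had 791 bp in JMJD3 KO cells and 1157 bp in parental cells (−0.55). THOC1, of the mRNA export complex THO, had 871 bp in JMJD3 KO cells and 2111 bp in parental cells (−1.28). IMPA2, an inositol monophosphatase, had 902 bp in JMJD3 KO cells and 2594 bp in parental cells (−1.52). CTDP1, a phosphatase of RNA polymerase II outside the list, had 4316 bp in JMJD3 KO cells, the widest H3K4me3 promoter of the chromosome in that genotype, and 5713 bp in parental cells (−0.40).

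Developmental transcription factors divided into a marked and an unmarked set. Of 11, 6 carried H3K4me3 in both genotypes, with a median of −0.97, and 5 in neither. TCF4, an E protein of dendritic cells and neurons, had 722 bp in JMJD3 KO cells and 2880 bp in parental cells (−2.00). GATA6, an endoderm factor, had 1216 bp in JMJD3 KO cells and 2715 bp in parental cells (−1.16), in peaks shared with GATA6-AS1. TSHZ1, a homeotic zinc finger gene, had 2625 bp in JMJD3 KO cells and 4509 bp in parental cells (−0.78). The same peaks count for ZADH2, so they cannot be given to 1 of these genes. SETBP1, a gene mutated in myeloid neoplasms, had no promoter peak of either mark in either genotype. Within 20 kb it had 2 H3K27me3 peaks of 2047 bp in all in JMJD3 KO cells and 5 of 4262 bp in parental cells.

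The losses and gains of the H3K4me3 state were few and narrow. PARD6G had 2 parental peaks summing to 1111 bp, the wider one of 829 bp at chr18:78004537-78005365, and none within 20 kb in JMJD3 KO cells. ZNF396, a SCAN zinc finger gene, had 1 parental peak of 884 bp at chr18:32956612-32957495, across its start site, and none in JMJD3 KO cells. RNF152, a lysosomal ubiquitin ligase, had 385 bp in parental cells, and the desmosomal cadherin DSC2 had 230 bp. GNAL, an olfactory G protein subunit, had 3 parental peaks with 639 bp, but the widest lay at chr18:11853610-11853887, beside CHMP1B, whose start site at 11851388 lies inside the listed span of GNAL start sites. LINC00526 and LINC00667 have neighbouring start sites and share 632 bp of parental peaks.

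SERPINB2 was the widest of the 3 gains, with 3 JMJD3 KO peaks summing to 646 bp, the widest of 239 bp at chr18:61557468-61557706. The peak nearest its start site had its centre 1611 bp away, and none spanned it. Within 20 kb the gene had 6 JMJD3 KO and 2 parental H3K4me3 peaks, and with a promoter window of 10 kb the summed width in JMJD3 KO cells minus that in parental cells was −41 bp. Of 10 clade B serpins, SERPINB8 carried H3K4me3 in both genotypes, with 1241 bp in JMJD3 KO cells and 1727 bp in parental cells (−0.48). The other gains were MYO5B and the microRNA gene MIR4743, with 1 JMJD3 KO peak of 171 bp. All 3 gains were lost when peaks under 300 bp were left out.

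**Figure D3:**
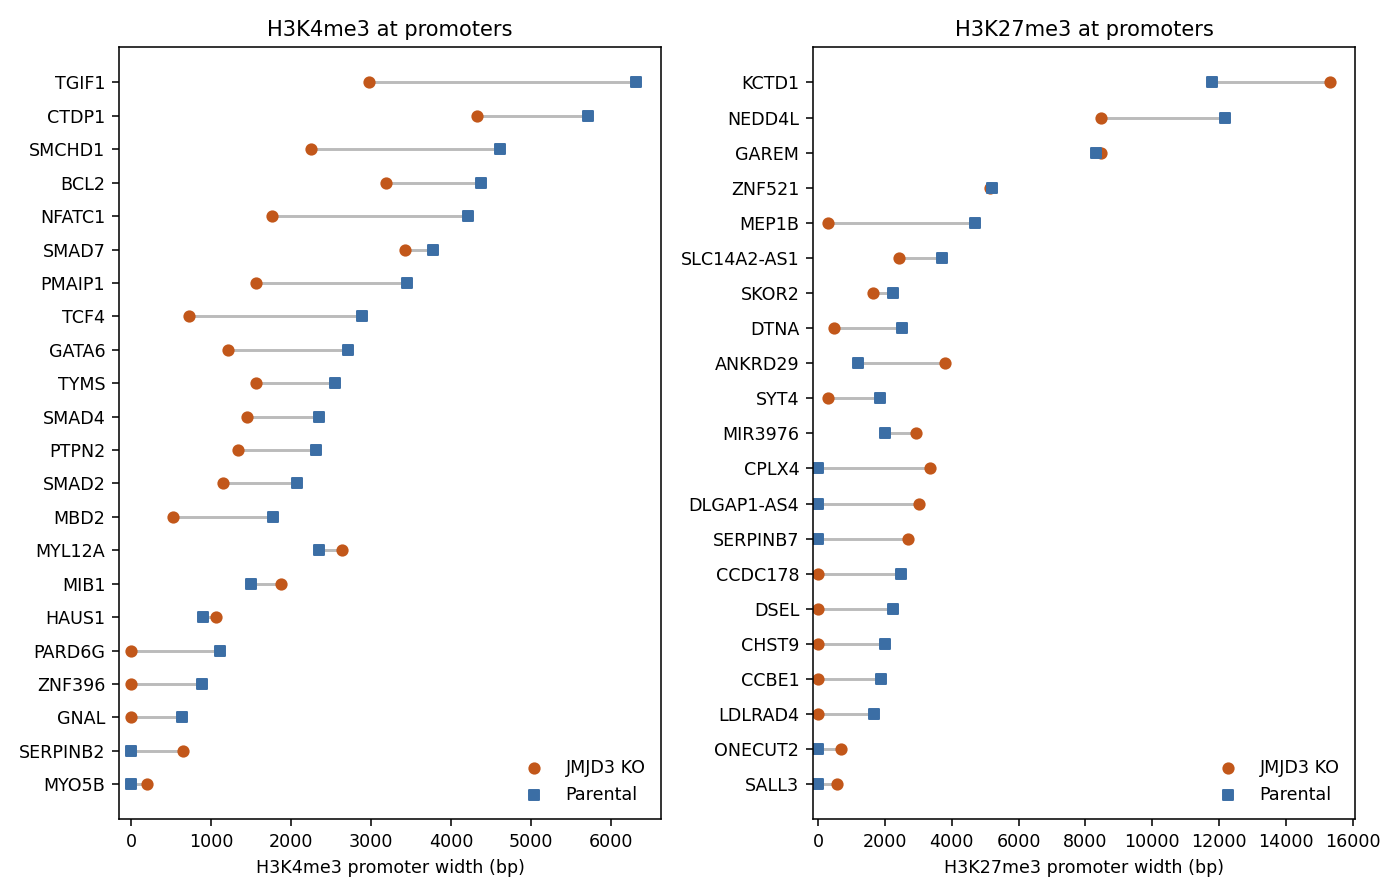
Summed width of promoter peaks for selected genes of chromosome 18, H3K4me3 at left and H3K27me3 at right, with JMJD3 KO as orange circles and parental as blue squares, 1 library each. TGIF1 has 2974 bp of H3K4me3 in JMJD3 KO and 6310 bp in parental cells, and MIB1 has 1879 bp in JMJD3 KO and 1500 bp in parental cells. H3K27me3 differs in both directions, with 15311 bp at KCTD1 in JMJD3 KO and 11788 bp in parental cells, and 298 bp at MEP1B in JMJD3 KO and 4699 bp in parental cells.

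H3K27me3 peaks were dense on chromosome 18 in both genotypes, which is part of why the chromosome was chosen and no separate finding. It had 78.0 H3K27me3 peaks per 100 listed genes in JMJD3 KO cells and 101 in parental cells, against 16.9 in JMJD3 KO cells and 18.4 in parental cells on all other chromosomes. The next densest were chromosome 13 at 31.3 in JMJD3 KO cells and chromosome 8 at 35.8 in parental cells. Chromosome 18 made up 7.14% of all H3K27me3 peaks in JMJD3 KO cells and 8.36% in parental cells, while it has 296 of the 18086 listed genes. The ratio of JMJD3 KO to parental H3K27me3 peaks was 0.773 (0.651 to 0.917), against 0.916 elsewhere. Covered lengths were 345 kb in JMJD3 KO cells and 425 kb in parental cells, a ratio of 0.813 against 1.01 elsewhere. The median peak was 1105 bp wide in JMJD3 KO cells and 1029 bp in parental cells.

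The H3K27me3 peaks lay away from start sites and were shared more often than on all other chromosomes taken as 1 set. Start sites within 1 kb were found for 4.76% of JMJD3 KO and 5.02% of parental H3K27me3 peaks, and for 57.6% of the H3K4me3 peaks of either genotype. More than 5 kb from every listed start site lay 76.2% of JMJD3 KO and 75.6% of parental H3K27me3 peaks. Peaks centred 20 kb or more from a listed start site are not in the lists. Of JMJD3 KO peaks, 47.6% (41.3 to 54.0) overlapped a parental peak, against 28.2% elsewhere. Of parental peaks, 36.1% (30.9 to 41.7) overlapped a JMJD3 KO peak, against 26.4% elsewhere. A peak of the other genotype was within 10 kb for 77.5% of JMJD3 KO and 76.6% of parental peaks, against 55.9% of JMJD3 KO and 57.9% of parental peaks on all other chromosomes. A denser chromosome offers more chances of overlap, and this share was not set against that density.

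Peaks of both lists less than 20 kb apart formed 122 clusters, of which 73 held peaks of both genotypes, 26 of JMJD3 KO cells only and 23 of parental cells only. Places with the mark were thus about as many in both genotypes, with 99 clusters that held JMJD3 KO peaks and 96 that held parental peaks. The 73 shared clusters held 192 of the 231 JMJD3 KO peaks and 264 of the 299 parental peaks. The 10 clusters with most bases under peaks held 36.8% of the JMJD3 KO and 36.1% of the parental H3K27me3 bases of the chromosome, and 3 of the 10 held an H3K4me3 peak. The first of them, chr18:30032997-30099194 at GAREM, an adaptor of growth factor receptors, had 22631 bp in 11 JMJD3 KO peaks and 18831 bp in 8 parental peaks. At the sialyltransferase gene ST8SIA3, a brain gene, the cluster had 9941 bp in JMJD3 KO cells and 18239 bp in parental cells. At RAX, a homeobox gene of the eye, it had 1913 bp in JMJD3 KO cells and 11205 bp in parental cells, including a parental peak of 8065 bp at chr18:56948478-56956542. At MIR3976HG it had 3761 bp in JMJD3 KO cells and 14158 bp in parental cells.

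In 10 Mb windows, H3K27me3 peak numbers were below the parental ones in 6 of 8. The window from 10 to 20 Mb had 19 JMJD3 KO and 9 parental peaks, a ratio of 2.11 (0.974 to 4.58), and shared 1 peak of each list with the other. With windows shifted by 5 Mb, 38 JMJD3 KO and 51 parental peaks lay from 5 to 15 Mb, a ratio of 0.745. From 15 to 25 Mb there were 20 JMJD3 KO and 31 parental peaks, a ratio of 0.645. The excess of JMJD3 KO peaks from 10 to 20 Mb was thus not seen with the shifted windows. The window from 0 to 10 Mb had 26 JMJD3 KO and 46 parental peaks, a ratio of 0.565 (0.351 to 0.910). With the shifted windows, 7 JMJD3 KO and 4 parental peaks lay below 5 Mb. The window from 50 to 60 Mb was the fullest for this mark, with 54 JMJD3 KO and 64 parental peaks. It also had the lowest H3K4me3 ratio of the unshifted windows, but the lowest ratio lay elsewhere with the shifted windows. The windows from 70 to 80 Mb and from 10 to 20 Mb had few H3K27me3 peaks but 60 or more H3K4me3 peaks in each genotype.

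Of the listed genes, 22 had H3K27me3 at the promoter in both genotypes, 22 in JMJD3 KO cells only and 27 in parental cells only. Over all genes with H3K27me3 in either list, 33.7% were marked in JMJD3 KO cells only and 35.5% in parental cells only, and on chromosome 18 these groups were likewise of similar size. Among the 22 in both, the median log2 ratio of summed width was −0.46, against 0.02 elsewhere. That chromosome 18 median was −0.19 with peaks of at least 300 bp, −0.02 with a 1 kb window (7 genes) and −0.07 with spanning peaks alone (4 genes). It was −0.37 with lists of equal length, and −0.46 with a 10 kb window and with nearest genes alone. No value for the other chromosomes is given under these settings, so the distance from them there is unknown. Promoters at least 2-fold narrower in JMJD3 KO cells numbered 4 (18.2%), against a background of 23.5%, and 2 were at least 2-fold wider, against 21.2%. Those wider by any amount were 8 (36.4%), against 50.8%. Within 20 kb, 105 genes had a JMJD3 KO peak and 101 a parental peak, and 81 had both.

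Of the 6 widest H3K27me3 promoters marked in both genotypes, GAREM and ZNF521 had nearly equal widths and the other 4 differed. KCTD1 had 15311 bp in JMJD3 KO cells and 11788 bp in parental cells (log2 ratio 0.38), and a 1 kb window turned the difference to −677 bp. Its widest peak measured 7792 bp in JMJD3 KO cells (chr18:24233566-24241357) and 8469 bp in parental cells (chr18:24232642-24241110), where it was the widest H3K27me3 peak of the chromosome. ZNF521, a zinc finger regulator of blood stem cells, had a single peak of 5134 bp in JMJD3 KO cells and a single peak of 5215 bp in parental cells (−0.02). GAREM had 8475 bp in JMJD3 KO cells and 8317 bp in parental cells (0.03), with a difference of −2655 bp in a 1 kb window. NEDD4L, a ubiquitin ligase that controls the epithelial sodium channel, had 8478 bp in JMJD3 KO cells and 12175 bp in parental cells (−0.52). The antisense gene SLC14A2-AS1 had 2414 bp in JMJD3 KO cells and 3706 bp in parental cells (−0.62), and ANKRD29, an ankyrin repeat gene, 3812 bp in JMJD3 KO cells and 1211 bp in parental cells (1.65). SKOR2 had 1636 bp in JMJD3 KO cells and 2256 bp in parental cells (−0.46).

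Other promoters differed by several fold. MEP1B, a metalloprotease subunit of kidney and gut, had 298 bp in JMJD3 KO cells and 4699 bp in parental cells (−3.98). SYT4, a synaptotagmin of neurons, had 298 bp in JMJD3 KO cells and 1869 bp in parental cells (−2.65). DTNA, dystrobrevin alpha, had 468 bp in JMJD3 KO cells and 2517 bp in parental cells (−2.43), with the widest peaks of the genotypes at different start sites. At ANKRD29 the JMJD3 KO peak at chr18:21240588-21244399 spanned the start site at 21242849, and the parental peak at chr18:21240234-21241444 stopped short of it.

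Genes with H3K27me3 in 1 genotype included, on both sides, genes known for roles in other tissues than blood. In JMJD3 KO cells only, the widest were CPLX4, a complexin of retinal synapses, with 3352 bp at chr18:56983677-56987028, DLGAP1-AS4 with 3027 bp, and SERPINB7, a skin serpin, with 2701 bp. Homeobox and zinc finger factors on that side were ONECUT2 with 685 bp and SALL3 with 564 bp, and the melanocortin receptor MC4R, which controls appetite, had 609 bp. Within 20 kb, however, ONECUT2 had 4 H3K27me3 peaks of 3697 bp in all in JMJD3 KO cells and 3 of 6318 bp in parental cells. SALL3 and MC4R had no parental H3K27me3 peak within 20 kb. ANKRD20A5P, with 1834 bp in JMJD3 KO cells only, belongs to a family of near-identical copies, so its mapping is uncertain. In parental cells only, the widest were CCDC178 with 2488 bp and DSEL, an enzyme of dermatan sulfate, with 2244 bp that it shares with LOC643542. CHST9, a sulfotransferase, had 2001 bp and CCBE1, needed for lymphatic vessels, 1900 bp in parental cells only.

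Of 22 nervous system genes, 10 had H3K27me3 at the promoter in either genotype, which is 66.7% of the 15 listed members, beside 71 of the 296 listed genes of the chromosome. No test of this difference was made. Of the 22, 6 were marked in both genotypes, 3 in JMJD3 KO cells only (DLGAP1, MC4R and CPLX4) and 1 in parental cells only (GNAL), and 12 in neither. The 6 had a median log2 ratio of −0.64. The GNAL state rests on 1 parental peak of 366 bp centred 4519 bp from a start site. Within 20 kb GNAL had 5 H3K27me3 peaks of 5389 bp in all in JMJD3 KO cells and 2 of 1429 bp in parental cells. DLGAP1, MC4R and CPLX4 had no parental H3K27me3 peak within 20 kb. DCC, the netrin receptor, had 525 bp in JMJD3 KO cells and 917 bp in parental cells (−0.80). AQP4, the water channel of astrocytes, had 2376 bp in JMJD3 KO cells and 2248 bp in parental cells (0.08). RIT2, a neuronal GTPase, had 928 bp in JMJD3 KO cells and 754 bp in parental cells (0.30). Of 11 developmental transcription factors, 4 had H3K27me3 in either genotype (36.4%). The genes of cell division, of apoptosis and immune signalling, of chromatin and of vesicle traffic had no H3K27me3 promoter in either genotype. Of 7 desmosomal cadherins only 3 were listed with any peak, and none of these had an H3K27me3 promoter. Among other cadherins, CDH20 had 871 bp in JMJD3 KO cells and 1227 bp in parental cells (−0.49) and CDH19 had 563 bp in parental cells only. Within 20 kb, DSG3 had 2646 bp and DSG2 586 bp of H3K27me3 in JMJD3 KO cells, and neither had any in parental cells.

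**Figure D4:**
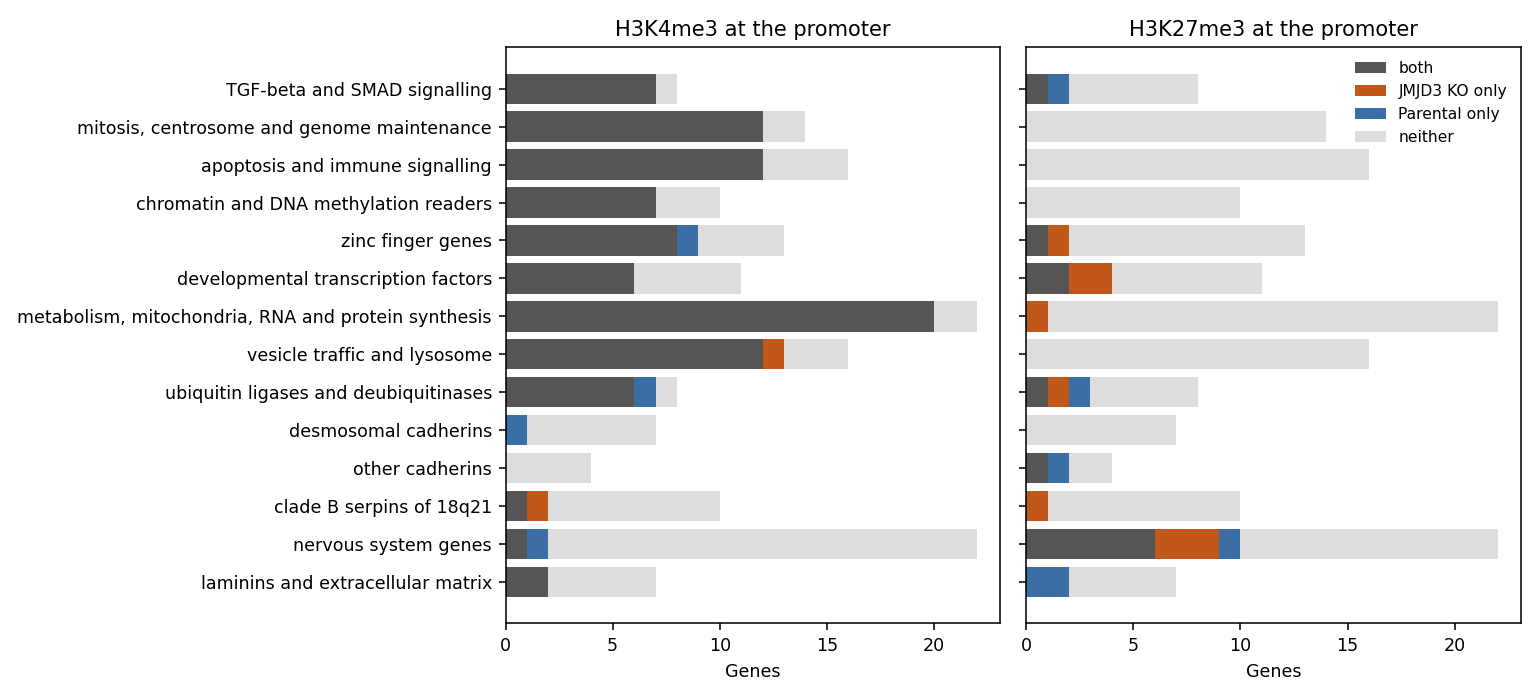
Number of genes of each list marked at the promoter in both genotypes (dark grey), JMJD3 KO cells only (orange), parental cells only (blue) or neither (light grey), for H3K4me3 at left and H3K27me3 at right. H3K4me3 was in both genotypes at 20 of 22 metabolism genes and 12 of 14 cell division genes, beside 167 of the 296 listed genes. H3K27me3 was in either genotype at 10 of 22 nervous system genes, beside 71 of the 296.

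Few promoters carried both marks. In JMJD3 KO cells 7 genes did, which is 15.9% of those with H3K27me3, against 16.9% over all genes. In parental cells 11 genes did, 22.4% against 22.5% over all genes. ANKRD29, GAREM, KCTD1, NEDD4L and ZNF521 carried both marks in both genotypes, though not always at 1 start site. At KCTD1 the widest parental H3K4me3 peak was chr18:24128629-24129091 and the widest parental H3K27me3 peak chr18:24232642-24241110. In JMJD3 KO cells its widest H3K4me3 peak, chr18:24237047-24237415, lay inside its widest H3K27me3 peak. The widest NEDD4L peaks in JMJD3 KO cells also lay apart, with H3K4me3 at chr18:55710988-55712091 and H3K27me3 at chr18:55884158-55886290. At ANKRD29 the JMJD3 KO H3K27me3 peak enclosed the widest JMJD3 KO H3K4me3 peak of the gene, 244 bp at chr18:21242171-21242414, while in parental cells the H3K4me3 peak of 1268 bp at chr18:21241762-21243029 lay beside the H3K27me3 peak. CCDC102B carried both marks in JMJD3 KO cells at different start sites, with H3K4me3 at chr18:66381750-66382180 and H3K27me3 at chr18:66465723-66466098. LINC00526 and LINC00667 had promoter H3K4me3 in parental cells only and promoter H3K27me3 in JMJD3 KO cells only. The latter was a JMJD3 KO peak of 610 bp at chr18:5233603-5234212, centred 4121 bp from the LINC00526 start site. Within 20 kb, however, each gene had H3K27me3 in both genotypes, 4 JMJD3 KO peaks of 6513 bp in all and 3 parental peaks of 3202 bp. Of H3K4me3 peaks, 7 (1.44%) in JMJD3 KO cells and 7 (1.37%) in parental cells overlapped an H3K27me3 peak of the same genotype, against 0.196% of JMJD3 KO and 0.319% of parental H3K4me3 peaks on all other chromosomes. Of H3K27me3 peaks, 1.73% in JMJD3 KO and 1.34% in parental cells overlapped an H3K4me3 peak, against 1.33% in JMJD3 KO and 2.56% in parental cells elsewhere. The H3K27me3 peak density given above differs between these regions too, and its part in the first share was not tested. The cells of each library were a population, so both marks at 1 gene need not lie on the same chromosome copy.

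Promoters with H3K4me3 were richer in CpG than promoters with H3K27me3 alone. KCTD1, shown above, carried both marks and with 6 CpG dinucleotides lay far below the median of that class. A RefSeq promoter was found for 216 of the 296 genes. The 124 with H3K4me3 in both genotypes and no H3K27me3 had a median of 30 CpG dinucleotides (quartiles 22.75 and 37), and 73.4% held GGGCGG. The 41 with H3K27me3 in either genotype and no H3K4me3 had a median of 8 (3 and 25), and 31.7% held GGGCGG. The 11 with both marks had a median of 35 (30 and 39), and 81.8% held GGGCGG. The 34 with neither mark had a median of 9.5. Among genes with H3K4me3 in both genotypes, the median was 28 for those at least 2-fold narrower in JMJD3 KO cells and 30 for the rest. CCAAT was in 37.1% of promoters with H3K4me3 in both genotypes and no H3K27me3, and in 34.6% of all promoters.

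**Figure D5:**
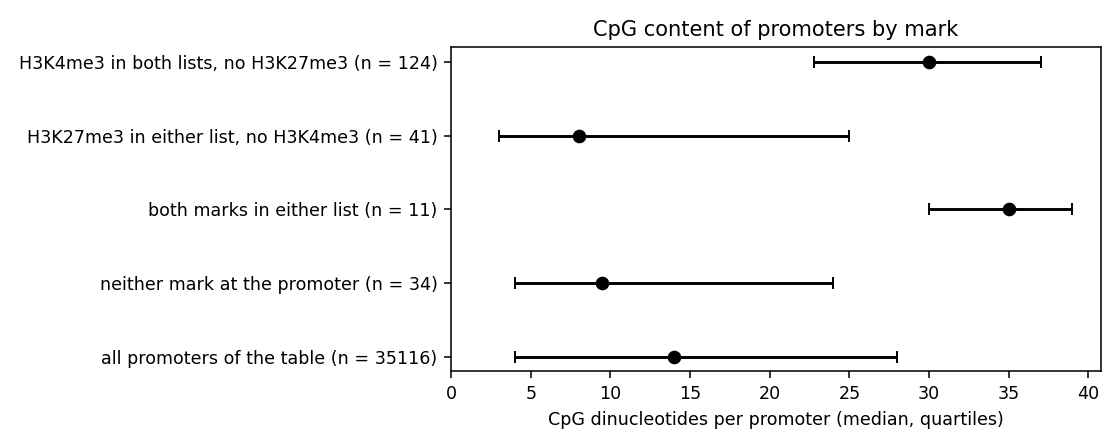
CpG dinucleotides in 300-base RefSeq promoters of chromosome 18 genes by mark, and in all promoters of the table; points are medians and bars run between quartiles. The medians are 30 for H3K4me3, 8 for H3K27me3, 35 for both marks, 9.5 for neither and 14 for all promoters.

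Several microRNA genes of chromosome 18 lay near H3K27me3 peaks. The mature sequences of 3 of them follow, from RefSeq on GRCh38.p14, 5′ to 3′ with the seed, bases 2 to 8, in capitals. They are shown because the liver microRNA miR-122 and miR-3976 lay near H3K27me3 peaks and MIR4743 was among the 3 gains of H3K4me3. No seed is shared between them.
hsa-miR-3976: uAUAGAGAgcaggaagauuaaugu
hsa-miR-122-5p: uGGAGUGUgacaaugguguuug
hsa-miR-4743-5p: uGGCCGGAugggacaggaggcau

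Within 20 kb of MIR3976 lay 1 H3K27me3 peak of 2935 bp in JMJD3 KO cells and 6 of 6284 bp in all in parental cells. Within 20 kb of MIR122 lay 1 H3K27me3 peak of 1297 bp in JMJD3 KO cells, centred 19494 bp away, and 2 of 1995 bp in all in parental cells, the nearer centred 10581 bp away. MIR8057, within the KCTD1 region, had 5 H3K27me3 peaks of 5505 bp in all in JMJD3 KO cells and 5 of 9261 bp in all in parental cells. MIR4741 had 6 H3K4me3 peaks in JMJD3 KO cells and 4 in parental cells, and no H3K27me3.

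Marker genes of the labelled cell type lie on other chromosomes and were checked once. Of 10 myeloid markers, 7 carried H3K4me3 in both genotypes, among them MPO with 2550 bp in JMJD3 KO cells and 5524 bp in parental cells, and none carried H3K27me3. Over all 18086 listed genes, 11190 carried H3K4me3 in both genotypes. CTSG was marked in parental cells only, with 312 bp, and ELANE and AZU1 had no promoter peak. KDM6B itself had 710 bp of H3K4me3 in JMJD3 KO cells and 3041 bp in parental cells (−2.10), and no H3K27me3. A histone mark does not check whether the coding sequence was disrupted, so the knockout label rests on the submitters.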

How the data were processed

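HL-60 ChIP-seq peak lists of 2 marks in JMJD3 KO and parental cells were used, 1 library each. Per the submitters' processing notes, the tools were BWA 0.7.10, SAMtools and MACS2 2.1.1 on hg19; their settings, and the use of the inputs, are not given in the sources used here. Each deposited list pairs peaks with RefSeq transcripts, per the file headers. The deposited score follows from the distance (largest error 5e-13), so it says nothing of peak strength and was not used; listed distances reach 19999 bp. No file holds counts or heights, so depth is unknown. Starts were read as counted from 0 and are printed from 1.

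Distinct peaks were counted per list (Python 3.11.15, pandas 2.3.3, numpy 2.4.6, scipy 1.17.1, matplotlib 3.10.9). Shares have Wilson 95% intervals, which cover counting error only. Promoter peaks lay within 5 kb of a start site or spanned it; their widths were summed per gene and compared as log2 ratios, called at 2-fold. Width is the extent of a called region, not the amount of the mark. The scripts were tested on simulated lists. The chromosome, the 14 gene lists (165 genes) and the tests were chosen with earlier results of these data known. Genes were named by rule: fixed genes, list members whose state differed, the widest promoters of each state, the largest gains and losses of width, and the widest peaks; others were chosen after their values were seen (among them the clusters, the microRNAs other than MIR3976 and MIR4743, and list members marked in both genotypes). RefSeq on GRCh38.p14 held 268 of the 296 symbols, and 16 more under an older name. No hg19 sequence was used.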

Additional observations from a re-analysis of the deposited data

How the results depend on the processing

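List definitions moved the size of many results; the cause was not tested. The ratio of H3K4me3 peaks was 0.728 with peaks of at least 300 bp. That filter gave median H3K4me3 widths of 542 bp in JMJD3 KO and 717 bp in parental cells, overlaps of 94.0% for JMJD3 KO peaks, shares within 1 kb of a start site of 66.1% in JMJD3 KO and 68.8% in parental cells, 0 genes gained, 18 lost and a median log2 ratio of −0.78. With lists of equal length, 69.3% of parental H3K4me3 peaks overlapped and 62.6% lay within 1 kb. Within 2 kb lay 84.0% of JMJD3 KO and 76.3% of parental H3K4me3 peaks, and 8.70% of parental H3K27me3 peaks. Requiring 50% of a peak to be covered gave H3K4me3 overlaps of 81.3% in JMJD3 KO and 42.0% in parental cells, and H3K27me3 overlaps of 28.1% in JMJD3 KO and 21.7% in parental cells. Reciprocal 50% overlap gave 27.2% in JMJD3 KO and 25.9% in parental cells for H3K4me3, and 14.7% in JMJD3 KO and 11.4% in parental cells for H3K27me3. Spanning peaks alone left 25 H3K4me3 genes in both genotypes, 9 in JMJD3 KO and 28 in parental cells only, and for H3K27me3 4 in both, 4 in JMJD3 KO and 7 in parental cells only; both marks then met at 2 genes in JMJD3 KO and 3 in parental cells. Nearest genes alone gave 7 H3K4me3 gains. H3K27me3 genes numbered 7 in both, 5 in JMJD3 KO and 10 in parental cells only with a 1 kb window, and 53 in both genotypes with a 10 kb window. Both marks met at 14 genes in JMJD3 KO cells with 10 kb, and at 6 in parental cells with 1 kb. Width differences, JMJD3 KO minus parental, changed sign under an alternative for 17 of 75 named gene and mark pairs, 5 of them called: NFATC1 H3K4me3 (346 bp, spanning peaks), SERPINB2 H3K4me3 (−41 bp, 10 kb), LINC00669 H3K27me3 (−449 bp, 1 kb), LOC284294 H3K27me3 (−2180 bp, 10 kb) and ONECUT2 H3K27me3 (−1129 bp, 10 kb). The other 12, all under 2-fold, were SMAD2, SMAD7, SERPINB8, MIB1, HAUS1, MYL12A, EPG5 and NPC1 for H3K4me3 and KCTD1, GAREM, MIR3976 and MIR3976HG for H3K27me3. With a 1 kb window 29 of 37 named H3K4me3 states and 11 of 38 named H3K27me3 states were kept. With spanning peaks alone 10 of the 37 and 8 of the 38 were kept, and 19 and 26 were left unmarked. No paired analysis was possible because each genotype and mark has 1 library. Without counts or heights, what depth limits is unknown.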
